A study of Mus musculus with 41 samples.

Results

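Of the 41 mouse mammary tumors in the series, 4 are described here, PLK2null-7747, PLK2null-1963, PLK2null-1964 and PLK2null-1965. They were selected on measured values, because in these tumors Mdm2 was far above its level in the other tumors of the same genotype and Krt5 was high, so every difference between them and the other tumors is a description and no test of it is given. The series holds 28 tumors of genotype Plk2-/-; p53-/- (PLK2null) and 13 of genotype p53-/- (p53null), all in Balb/c mice, with 1 library of bulk tumor RNA each and no drug treatment. The PLK2null tumors go back to mammary epithelial cells lacking both Plk2 and p53 in the germline, which had been grafted into wild-type Balb/c hosts whose mammary fat pads had been cleared, and per the labels the tumors were grown by orthotopic injection into syngeneic hosts. Whether stromal cells were carried over with a graft is not stated. The 4 tumors were set against 21 other PLK2null tumors. The remaining 3 PLK2null tumors, PLK2null-743, which the study names as claudin-low, and PLK2null-733 and PLK2null-732, put with it here from earlier results of these data, are called the claudin-low tumors below and were left out of the comparison, and the 13 p53null tumors are given beside it where a value bears on a result. The p53null tumors carry a series name in their titles that the PLK2null tumors do not, so genotype and batch cannot be told apart in any value that sets p53null beside PLK2null. The labels do not say whether any of the 4 grew from the same primary tumor.

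Mdm2 encodes the ubiquitin ligase that binds p53, blocks its activity and sends it to the proteasome, and amplification of the gene is a known way for tumors that keep wild-type p53 to silence it. All 4 tumors, like every tumor of the series, lack functional p53. Krt5 encodes keratin 5, an intermediate filament protein of the basal layer of the mammary duct, where it marks basal and myoepithelial cells, and its promoter is a known target of p63, the p53 relative that maintains basal epithelia. When a stretch of a chromosome is amplified, its genes tend to rise together in RNA, so a run of neighboring genes that are high in the same tumors can be read from expression data. No DNA was measured here, and copy number was not tested.

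The sequences just upstream of the 2 genes that give the tumors their name are shown because both genes are known targets of the p53 family. They are the 250 bases before the annotated start on the minus strand, from RefSeq for GRCm38.p6, the build called mm10, at chr10:117710759-117711008 for Mdm2 and chr15:101712906-101713155 for Krt5, with the single match to the 10-base half-site of the p53 family in capitals.
Mdm2: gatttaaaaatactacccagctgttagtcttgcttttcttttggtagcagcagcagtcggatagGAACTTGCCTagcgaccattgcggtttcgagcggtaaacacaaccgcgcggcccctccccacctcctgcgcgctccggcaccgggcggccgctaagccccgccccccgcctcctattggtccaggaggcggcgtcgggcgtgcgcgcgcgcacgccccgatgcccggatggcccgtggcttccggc
Krt5: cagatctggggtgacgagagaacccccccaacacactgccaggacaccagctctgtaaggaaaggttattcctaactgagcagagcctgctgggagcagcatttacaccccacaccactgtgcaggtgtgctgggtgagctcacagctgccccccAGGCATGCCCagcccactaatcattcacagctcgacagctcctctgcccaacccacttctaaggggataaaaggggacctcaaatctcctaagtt
The match began 186 bases before the start of Mdm2 and 95 bases before that of Krt5. The half-site pattern reads the same on both strands. It occurred in 2341 of 32851 promoters of this length (7.13%), in 20 of 268 genes that were higher in the 4 tumors by the rule given below and had a promoter sequence (7.46%), and in 8 of 88 that were lower (9.09%). The p53-responsive promoter known for Mdm2 lies in its first intron, outside this window, and gene-level values do not show which promoter was used.

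Values are expression levels scaled by the authors to bring the 75% point of the genes above 0 to the same number, 1000, in each tumor, and differences are between means of log2(value + 1). To estimate the depth, the commonest nonzero value among the low values of a tumor was taken as 1 read. The depth was 35220780 to 47779530 fragments in the 4 tumors and 31910235 to 53244746 in the 21 others. In the 4 tumors 3 reads corresponded to 1.59 to 2.06 units. Values under that amount are at the detection floor, which covers counting error only.

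Mdm2 (chr10, start 117688875) stood at 19585 in PLK2null-7747, 19565 in PLK2null-1963, 18245 in PLK2null-1964 and 13406 in PLK2null-1965. Among the 21 others it ran from 1052 to 2469 with a median of 1678, which put the lowest of the 4 well above the highest of the others and gave a difference of 3.37 log2 units. Across the p53null tumors the median was 1359, and 1 tumor, p53null-2224L, reached 32230. Krt5 (chr15, start 101707070) was 9505, 36680, 8000 and 9781 in the 4 tumors in the same order. In the others it lay between 0 and 15274 around a median of 11.6, and 2 of the 21, PLK2null-1971 and PLK2null-7748, exceeded the lowest of the 4, so Krt5 was high in the 4 tumors (difference 8.29) but did not set them apart alone. The p53null tumors had a median of 6141 and a maximum of 57477.

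The genes tied to the genotype did not stand apart. Plk2 was listed at 234, 380, 275 and 216, within the 83.3 to 553 of the others (difference -0.13). Trp53 was 2098, 2665, 2105 and 2050 against 1563 to 3914 (difference -0.26). The tumor cells carry knockout alleles of both genes and the host cells do not, and the origin of the listed reads was not tested. Met and Cldn3 were both low. Met, the receptor for hepatocyte growth factor, was 625, 810, 419 and 745, where the others had a median of 100053, and only PLK2null-7748 at 640 lay below the highest of the 4 (difference -6.62). Low Met was not particular to the 4. The claudin-low tumors had 186 to 276, and the p53null tumors had a median of 2272 and ran from 144 to 93104. Cldn3, a tight-junction claudin, was 1320, 5470, 1135 and 3017 against a median of 6115, and overlapped widely (difference -1.36).

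**Figure D1:**
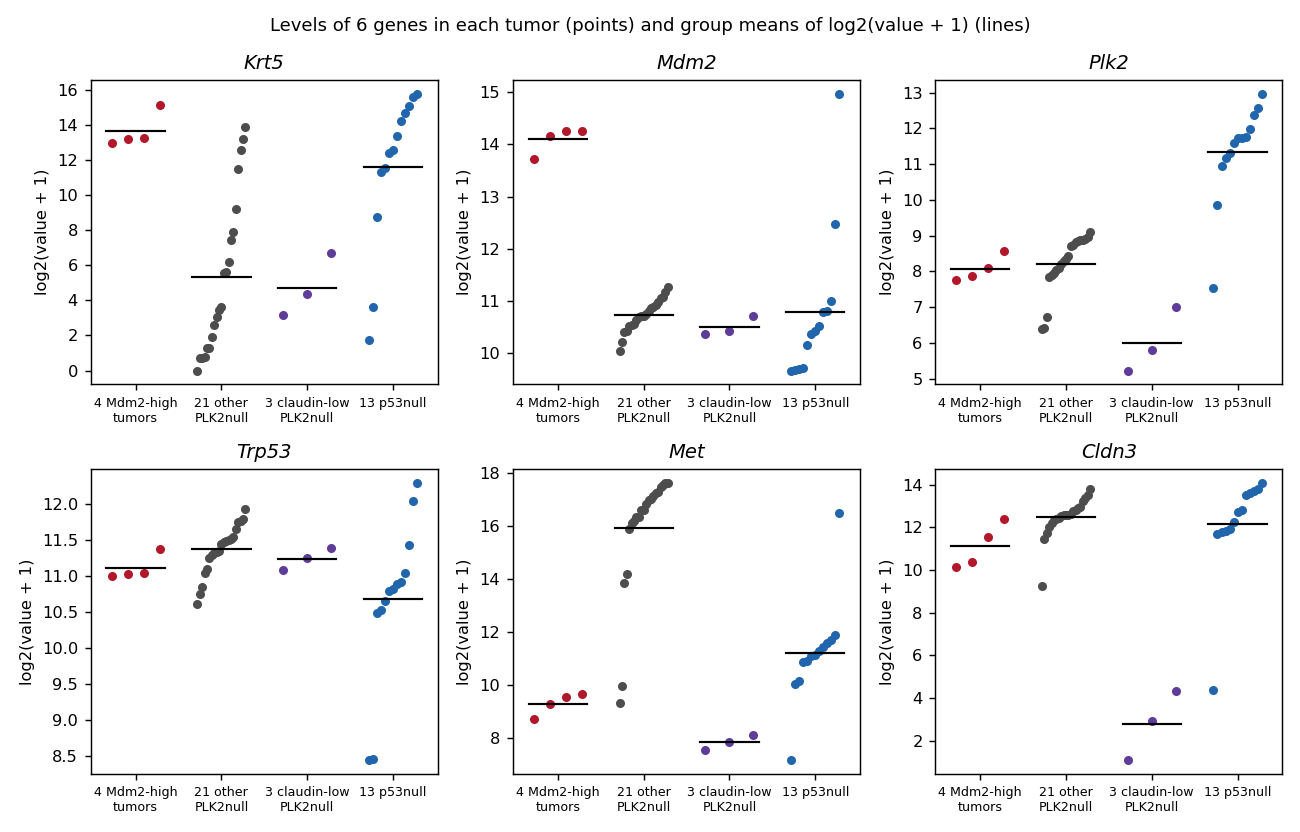
Level of Krt5, Mdm2, Plk2, Trp53, Met and Cldn3 in each tumor (points) on a log2(value + 1) axis, for the 4 Mdm2-high tumors, the 21 other PLK2null tumors, the 3 claudin-low PLK2null tumors and the 13 p53null tumors, with group means as lines. The 4 Mdm2 points lie above every other PLK2null tumor, and p53null-2224L at 32230 is the single tumor above them.

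Likeness between tumors was measured on the genes that varied most over the series, not on the whole transcriptome. Across the 2000 most variable genes, Pearson's r between pairs of the 4 was 0.62 to 0.89, a correlation across genes that share libraries and scaling. For pairs with PLK2null-1963 it was 0.62 to 0.69. The 3 nearest tumors of PLK2null-7747, PLK2null-1963 and PLK2null-1964 among the 40 others were the other members. For PLK2null-1965, p53null-2331L (r = 0.63) came just ahead of PLK2null-1963 (r = 0.62). Outside the group PLK2null-1971 came nearest to the first 3, with r = 0.61, 0.49 and 0.56. The closest pair, PLK2null-7747 and PLK2null-1964, still differed by more than an approximate counting error (median chi-square per gene 6.56). Counts were not recovered from the values, so this error is an estimate. No library was a copy of another.

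The label "basal" was checked against markers. Of 20 basal epithelial genes tested, 14 were higher on average in the 4 tumors and 6 lower, with a median difference of 1.44 against 0.15 over all genes, but none had all 4 tumors beyond all 21 others. Trp63, which encodes p63, was 6883, 6267, 6277 and 7601, against a median of 91.0, and PLK2null-1971 at 6482 was the 1 other tumor above the lowest of the 4. Col17a1, a hemidesmosome collagen, was 3675, 20311, 6174 and 8660 against a median of 48.8, with PLK2null-7748 at 9368. Bmp7 (difference 6.04), Irx4 (6.31), Trim29 (5.02), Id4 (3.98) and Jag2 (3.17) were high on average, and 1 to 3 of the others exceeded the lowest of the 4 in each. The keratin partner of Krt5 did not follow it. Krt14 was 439, 4193, 505 and 347, below the others' median of 2462 in 3 of the 4 tumors. Dsg3, a desmosomal cadherin of stratified epithelia, was 12.5, 21.6, 10.1 and 2.75 against a median of 469, and PLK2null-7763 was the 1 other tumor below the highest of the 4.

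The contractile genes of myoepithelial cells were the marker list with the largest median difference, 2.49, and 11 of its 12 genes were higher on average. Acta2, smooth muscle actin, was 25002, 20322, 15626 and 73590 against 700 to 47596 with a median of 3007. Myh11, smooth muscle myosin, was 8029, 4827, 4534 and 17734 against a median of 154. Cnn1, calponin, was 3711, 3867, 2426 and 13026 against a median of 119. In Acta2, Myh11 and Cnn1 the 1 overlapping tumor was PLK2null-1971. None of the 12 genes separated the groups fully. Summed over the list, the 4 tumors reached 56801 to 173675 and the others 22757 to 159102.

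Luminal markers were mixed, with 8 of 22 genes higher and 14 lower on average (median difference -0.57) and none beyond all others. Epcam was 4148, 15372, 2935 and 8254 against a median of 19298, and Krt8 was 14392, 7014, 14955 and 31624 against 19659. Prlr, the prolactin receptor, was 10927, 824, 6554 and 17376, with the highest of the others at 4593, and Foxa1 was 2026, 449, 1816 and 4659, with the highest of the others at 1066. For these and for Krt19, 3 of the 4 tumors lay above every other tumor and PLK2null-1963 did not. Milk proteins were low, with 8 of 9 genes lower on average (median difference -1.67). The 4 tumors thus expressed Krt5, Trp63 and contractile genes beside simple keratins, with low Krt14 in 3 of the 4.

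Among the 17014 genes with a mean of at least 10 over the 25 tumors, 421 (2.47%) had all 4 tumors above all 21 others with a difference of at least 1, and 126 (0.741%) had all 4 below with a difference of at most -1. Such genes are called separated below. The values that chose the 4 tumors are of the same contrast, and nothing is read from the size of these counts. Of the separated genes 77.0% were higher, and 64.1% were under quantile normalization. The median difference over all genes was 0.15, and it was -0.03 when the values were rescaled by TMM (trimmed mean of M-values), so differences below are to be read against 0.15. The count of lower genes rested on 2 of the 21, being 330 without PLK2null-7748 and 194 without PLK2null-7763.

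Otor, Otof and Reln had the largest differences. Otor, a secreted protein of cartilage and cochlea, was 3489, 4496, 6300 and 3315, while 17 of the 21 others were at or under the detection floor and the highest, PLK2null-7748, was 288. Otof, a calcium sensor of inner ear hair cells, was 1188, 2512, 533 and 3017 against at most 380. Reln, a secreted glycoprotein that guides neurons, was 3625, 10347, 6823 and 6621 against at most 3193, but reached 8603 in p53null-2331L and 5682 in a claudin-low tumor. These 3 genes had differences of 10.73, 8.79 and 8.49, sizes that depend on the pseudocount because most of the others were near 0.

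Pou2af1, a transcriptional coactivator known from B cells, was 6410, 3734, 8548 and 15175, and at most 1295 in the others. The B cell marker list did not move with it, since its summed level was 85.7 to 135 in the 4 tumors and 46.6 to 6288 in the others. Pi15, a secreted peptidase inhibitor, was 6785, 5643, 16282 and 11431 against at most 344. The gap between the groups was wide and PLK2null-1964 was the highest of the 4.

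Stag3, Gpat2 and Rbm44, all known from germ cells, were among the leading genes. Stag3, a cohesin subunit of meiosis, was 3562, 7102, 3853 and 3076 against 8.77 to 361. It was 577 to 1286 in the claudin-low tumors and reached 1717 in p53null-7435. Gpat2, an acyltransferase known from testis, was 1053, 1233, 1192 and 891 against at most 125. It reached 534 in p53null-2331L and was 46.9 to 76.7 in the claudin-low tumors. Rbm44, a germ cell RNA-binding protein, was 293, 154, 157 and 304, and 20 of the 21 others were at or under the floor. The spread among the 4 was small in all 3 genes beside the gap to the others.

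Other leading genes were Slc47a1, a transporter of organic cations (difference 8.24), Cpne7 (8.11), Grip1 (7.73), Egfl6 (7.25), Wif1 (7.07) and Arhgap20 (6.57). In 3 of the 15 leading genes, Reln, Egfl6 and Wif1, 1 p53null tumor lay above the lowest of the 4. Arhgap20 had the narrowest gap, with 544, 448, 436 and 474 against 433 in PLK2null-1971. Mycn, a Myc family transcription factor, was outside the 15 with the largest differences and chosen after its values were seen. It was 817, 1618, 1069 and 852 against 1.497 to 764, with a median of 11.2 (difference 5.91). The gap was narrow, with PLK2null-7763 at 764, PLK2null-7748 at 597, PLK2null-1971 at 348 and p53null-5317 at 775.

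Among lower genes, Mgam, an intestinal glucosidase, was 0, 0, 2.65 and 2.75 against 4.52 to 790 (difference -5.95). Csn1s2a, a casein, was 1.88, 0.585, 0.530 and 0.687, at or under the floor in all 4, against 2.92 to 1836. Stra6, the receptor that takes up retinol, was 15.02, 6.43, 20.1 and 17.9 against 34.5 to 6483. Scrg1 and Uox, which encodes urate oxidase, were listed at 0 in all 4 tumors. In the others Scrg1 had a median of 43.6 and Uox of 11.2.

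Ptprz1, Ltbp2 and Npnt were among the lower genes as well. Ptprz1, a receptor phosphatase, was 48.2, 112, 39.2 and 33.7 against 117 to 18500. Ltbp2, a microfibril protein, was 153, 301, 189 and 199 against 489 to 10644. Npnt, an integrin ligand of basement membranes, was 287, 115, 219 and 236 against 390 to 6579. For these genes the gap to the nearest other tumor was narrow, and the nearest was PLK2null-7763 or PLK2null-7748. Slc6a2 (-5.36), Lrrc15 (-4.36), Duoxa1 (-4.26), Slc39a8 (-4.12), Lipk (-3.86), Erich3 (-3.79) and Hmgb2 (-3.61) completed the 15. In 10 of the 15 lower genes at least 1 p53null tumor lay below the highest of the 4. Low levels of several were also found in the claudin-low tumors. Csn1s2a and Lipk were listed at 0 in all of them, and Stra6 and Slc6a2 were below the lowest of the 4. Ptprz1 was 8.39 to 41.8 there, and Scrg1, Lrrc15 and Ltbp2 overlapped with the 4 as well. Mgam, Duoxa1, Slc39a8, Erich3, Uox, Hmgb2 and Npnt were higher in every claudin-low tumor than in any of the 4.

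**Figure D2:**
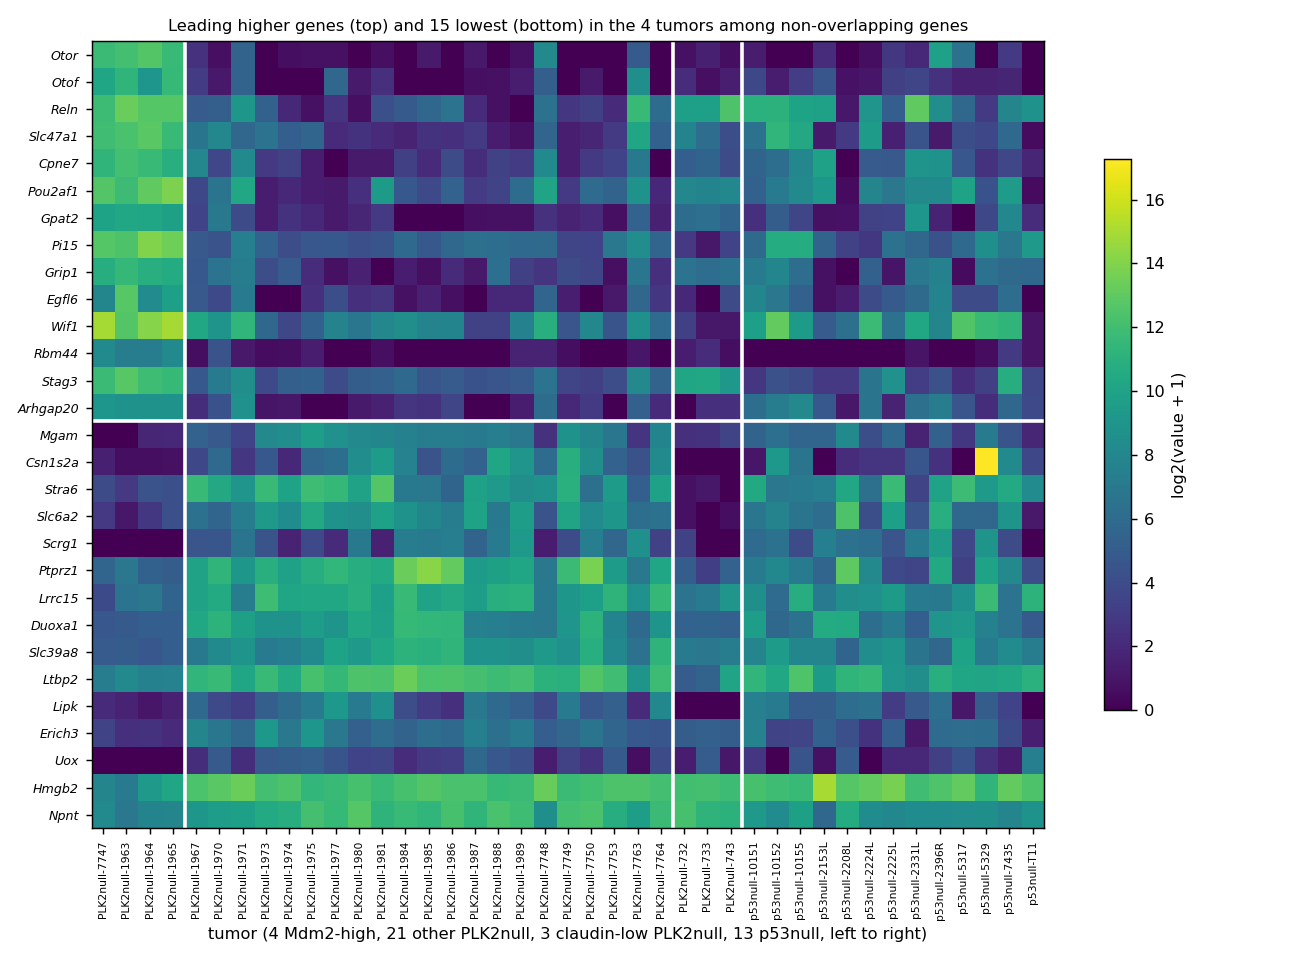
Heat map of log2(value + 1) for leading separated genes with a positive difference (top) and the 15 with the largest negative difference (bottom), with 1 column per tumor; white lines mark the 4 tumors, the 21 other PLK2null tumors, the 3 claudin-low tumors and the 13 p53null tumors. Otor, at 3315 to 6300 in the 4 tumors, is near 0 in most others.

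Separated genes were unevenly placed on the chromosomes. Chromosomes 8 and 10 carried 132 of the 421 higher genes (31.4%) and 9.12% of the genes tested. On chromosome 10, 68 of 735 tested genes were higher (9.25%), on chromosome 8, 64 of 817 (7.83%), and on chromosome 14, 0 of 566. To follow this along the chromosomes, each gene was taken with all tested genes starting within 1 Mb of it, and the window value of a tumor was the median of its deviations from the median of the 21. A window was called raised or lowered when the value passed 0.5 in all 4 tumors. Of 15792 windows, 974 (6.17%) were raised and 162 (1.03%) lowered, the former in 91 segments after merging. Rescaling by TMM turned these counts to 488 raised and 745 lowered. Of the segments, 10 raised ones and 1 lowered one held at least 4 separated genes that made up at least 20% of their genes, and these 11 kept their direction under TMM. Of the 10 raised ones, 5 then held fewer separated genes than this, those starting at 33191196 on chromosome 8, at 38965515 (9 of 50) and 50592669 (3 of 12) on chromosome 10 and at 134585654 (6 of 33) and 166170454 (2 of 8) on X, and in the last PLK2null-7747 had a median of 0.47, short of 0.5. The limit of 20% left out a raised segment on chromosome 17, from 30584936 to 37075067, with 24 of 203 genes separated (11.8%). Its medians were 0.68, 0.83, 0.66 and 0.63 in the 4 tumors and at most 0.29 in the others. It also left out a lowered segment on chromosome 17, from 26917091 to 29496112, with 6 of 53 genes separated. The 11 that met both limits are described next.

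The segment that holds Mdm2 ran from 115197872 to 123741204 on chromosome 10, with 58 tested genes. Its median deviation was 2.73, 2.64, 2.56 and 2.22 in the 4 tumors, and between -0.15 and 0.44 in the others. In all, 30 genes were separated (51.7%) and 52 of 58 had a positive difference. From the first separated gene, Tbc1d15, to the last, Usp15, the separated genes had differences of 1.26 to 7.73 with a median of 2.65. The raised segment thus covered 8.54 Mb.

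The neighbors of Mdm2 were high with it. Slc35e3, a solute carrier next to Mdm2, was 21953, 24266, 21003 and 13420 against at most 2312 (difference 3.99). Nup107, a nuclear pore subunit, was 15847, 14954, 16972 and 10836 against at most 1646 (3.99). Mdm1, a microtubule-binding protein, was 6320, 5817, 7730 and 4297 against at most 664 (4.16). In all of these PLK2null-1965 was the lowest of the 4, as it was for Mdm2. Farther along, Cand1, which exchanges cullin ligase subunits, had a difference of 3.58, and Helb, a DNA helicase, of 3.98. The kinase gene Tbk1 had one of 1.53. Grip1, a scaffold of glutamate receptors, and Wif1, a secreted inhibitor of Wnt ligands, had the largest differences in the segment and were among the 15 leading genes of the whole genome. Grip1 was 1705, 2830, 1840 and 1596 against at most 149, and Wif1 was 32031, 6383, 17654 and 31200 against 9.20 to 2640.

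Some genes inside the segment were not high. Hmga2, a chromatin protein often amplified with Mdm2 in sarcomas, was 84.5, 60.8, 82.8 and 50.9, with a median of 1715 in the others (difference -3.58). Avpr1a, a vasopressin receptor, had a difference of -2.14. Tspan8, Ptprb and Ppm1h had differences between -0.18 and 0.27. These, like the overlapping genes of the next paragraph, were chosen after their values were seen.

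On the side of the segment before Mdm2, 3 of the 21 others went higher than the 4 in some genes. Cct2, a chaperonin subunit, was 67207, 71259, 73769 and 51716 in the 4 tumors and 293285 in PLK2null-7748, 256950 in PLK2null-1967 and 119708 in PLK2null-1971, whereas the highest of the remaining 18 was 34362. Frs2, the adaptor of FGF receptors, was 11788, 10516, 11033 and 6429, and 60142, 35009 and 25538 in these 3. Yeats4, a chromatin reader, was 8980, 9991, 8230 and 6186, and 64154, 26982 and 24229. At Cnot2 and Cpsf6 the 3 did not all exceed the 4. Cpsf6, an mRNA cleavage factor, was 25412, 31958, 25257 and 13413, and 73046 in PLK2null-7748, 9748 in PLK2null-1967 and 15537 in PLK2null-1971. Mdm2 itself was 1052, 1180 and 1342 in the 3 tumors. High levels of these genes without high Mdm2 were therefore present in PLK2null tumors outside the 4. Without the 3 tumors, 39 of the genes of the segment were separated in place of 30. The p53null tumor p53null-2224L had Mdm2 at 32230, Slc35e3 at 33706 and Nup107 at 10362, but Helb at 164, and it exceeded the lowest of the 4 in 17 of the 58 genes.

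**Figure D3:**
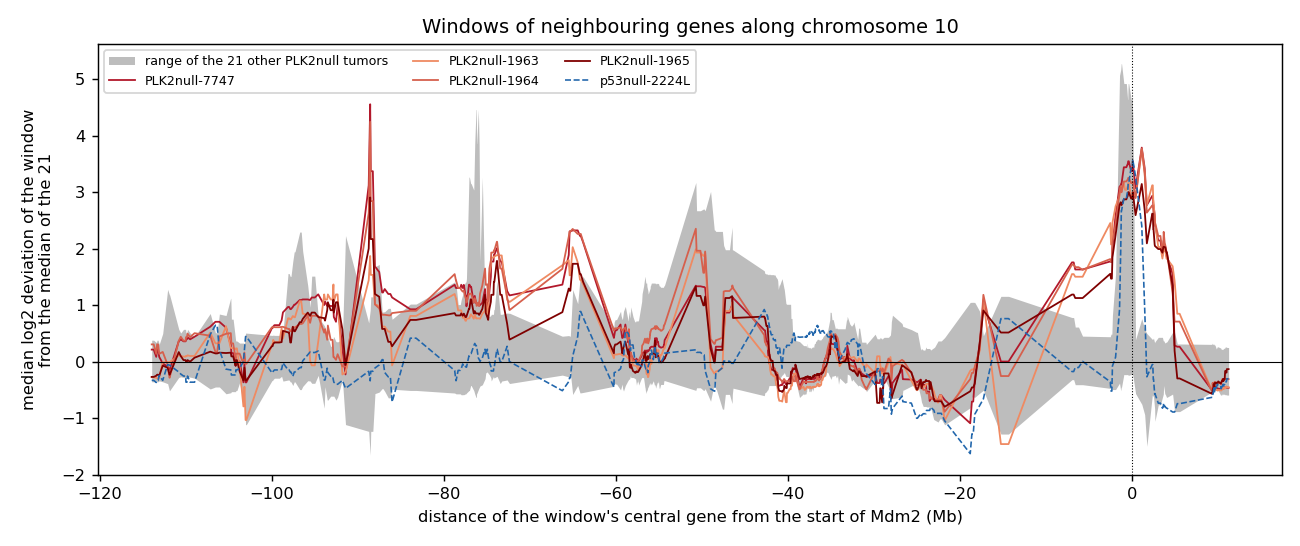
Median log2 deviation of gene windows along chromosome 10 against the distance from the start of Mdm2 in Mb, for the 4 tumors (solid), p53null-2224L (dashed) and the range of the 21 other PLK2null tumors (gray). The 4 lines run above the gray range just after Mdm2, while the gray peak just before it comes from PLK2null-7748, PLK2null-1967 and PLK2null-1971.

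Further segments lay on the same chromosome. That from 38965515 to 45712345 had medians of 1.26, 1.04, 1.30 and 0.89, with 11 of 50 genes separated. Sobp had a difference of 5.59, and the others named were Qrsl1 (2.37), Sesn1 (2.18), Atg5, an autophagy protein (2.08), Rtn4ip1 (1.91) and Pdss2 (1.79). PLK2null-7748 came closest among the 21, with a median of 0.87, and p53null-5317 reached 2.59, above the 4. That from 50592669 to 54076609 had medians of 1.79, 1.45, 2.12 and 1.33 and 4 of 12 genes separated, Gopc (2.59), Nus1 (2.05), Asf1a (1.96) and Ascc3 (1.10). That from 110745439 to 112929001 had medians of 1.68, 1.55, 1.71 and 1.17 and 6 of 11, with p53null-2225L at 1.17 and PLK2null-7763 at 0.73, the highest of the p53null tumors and of the 21. Separated were, among others, Zdhhc17 (1.91), Atxn7l3b (1.73), Bbs10 (1.72) and Osbpl8 (1.57). Zdhhc17 reached 1782 in a claudin-low tumor, above PLK2null-1965 at 1343. In the median of each of these segments, PLK2null-1965 was the lowest of the 4.

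On chromosome 8 the first raised segment lay at the very start of the annotated genes. From Insr to Trappc5, between 3122061 and 3681255, 14 of 16 genes were separated, with differences of 2.66 to 4.74 and a median of 3.86. Insr, the insulin receptor, was 21926, 34272, 24148 and 17035 against 2139 to 4308 (difference 2.99). Mcoln1, a lysosomal cation channel, was 29499, 46156, 38302 and 21275 against 919 to 1922 (4.45). Trappc5, a subunit of the vesicle-tethering TRAPP complex, was 22182, 25756, 21203 and 17175 against 777 to 1481 (4.27). In these 3 genes each of the 4 tumors was several times above the highest other tumor, and PLK2null-1963 was the highest. Fcor (4.74), Pex11g (4.33), Xab2 (3.97) and Arhgef18 (3.87) were separated as well. The 2 exceptions were Retn, known from fat cells, and Mcemp1, known from mast cells.

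The 20 genes of the merged segment beyond Trappc5, up to 4779567, had a median difference of -0.14, so the high levels stopped near Trappc5. Fcer2a, the low-affinity IgE receptor, was the first of them and, like Map2k7, was chosen after its values were seen. It was 1084, 8415, 771 and 5716 against a median of 4.81, with PLK2null-1981 at 1166. Map2k7, farther on, was 1350, 1759, 1527 and 1710 against 1880 to 3768. Over the merged segment p53null-2331L had a median of 1.15.

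The segment that holds Fgfr1 ran from 21776599 to 27276674 on chromosome 8, with 54 genes. It had medians of 1.56, 1.56, 1.79 and 1.51, against -0.44 to 0.56 in the others, and 33 genes were separated (61.1%). Fgfr1 (start 25513654), a receptor for fibroblast growth factors that is amplified in some breast cancers, was 72048, 91276, 104683 and 55682 against 4386 to 35795 (difference 2.55). Sfrp1, a secreted Wnt antagonist, was 17790, 14967, 30879 and 22210 against 876 to 5517 (2.79). Star, which carries cholesterol into mitochondria, was 797, 1162, 1074 and 585 against 55.3 to 185 (3.11). All 3 showed a clear gap. Ddhd2 (2.704), Ckap2 (2.34) and Tacc1 (2.33) were also separated, and Eif4ebp1, an inhibitor of cap-dependent translation, was the last separated gene of the segment (1.23). Tacc1 was 3904 to 6837 in the 4 tumors but 6349 to 7498 in the claudin-low tumors. Over the whole segment the claudin-low tumors had medians of -0.07 to -0.02. The same segment was raised in p53null-2331L, whose median of 1.84 exceeded those of the 4 and whose levels exceeded the lowest of the 4 in 39 of 54 genes. It was 1 of 2 p53null tumors past 0.5 there, and p53null-2224L, the one with high Mdm2, exceeded the lowest of the 4 in 29 of the 54.

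Beyond it, the segment from 31089471 to 32884029 had medians of 1.85, 1.54, 2.06 and 2.17, with 4 of 7 genes separated, among them Fut10 (1.78), Tti2 (1.33) and Mak16 (1.30). PLK2null-1971 reached 1.36 and p53null-7435 1.09 over it. Nrg1, the ligand of ErbB receptors at its end, was 1053, 603, 1632 and 1274 against a median of 156, and 2 others, PLK2null-1971 and PLK2null-1967, lay above the lowest of the 4. That from 33191196 to 35826559 had lower medians of 0.90, 0.89, 1.08 and 0.92. Its 6 separated genes, Gtf2e2, Saraf, Dctn6, Leprotl1, Tnks and Eri1, had differences of 1.079 to 1.204, and 2 genes of the segment were separated under TMM. Over all genes of chromosome 8 the medians were -0.27, -0.37, -0.17 and -0.26.

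The lowered segment that met both limits was also on chromosome 8, from 56294585 to 57653032, with medians of -2.08, -1.84, -1.50 and -1.76. It held 4 neighboring separated genes, Scrg1, Sap30, 2500002B13Rik and Hmgb2, between 57455923 and 57515999. Hmgb2, a chromatin protein of dividing cells, was 234, 143, 604 and 1214 against 2710 to 10924 (difference -3.61). Sap30, a subunit of a histone deacetylase complex, was 68.8, 35.7, 67.3 and 118 against 325 to 1721 (-3.38). Both genes were well below all 21, with PLK2null-1963 the lowest and PLK2null-1965 the highest of the 4. The 5 other genes of the segment had a median difference of -0.50.

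**Figure D4:**
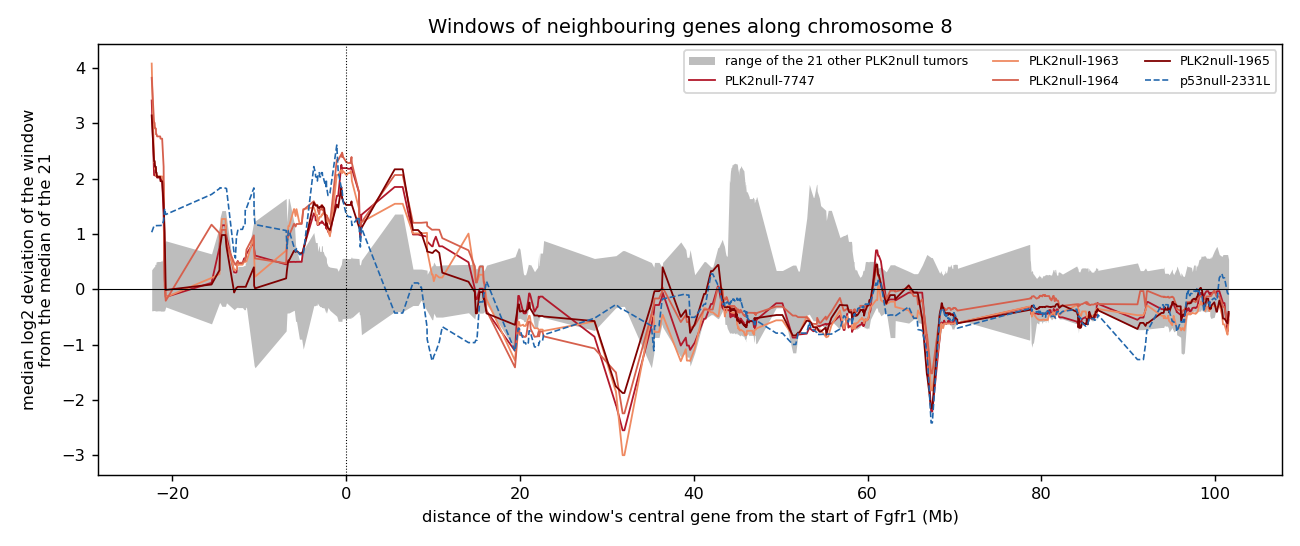
Median log2 deviation of gene windows along chromosome 8 against the distance from the start of Fgfr1 in Mb, for the 4 tumors (solid), p53null-2331L (dashed) and the range of the 21 other PLK2null tumors (gray). The 4 lines rise above the gray range at the start of the chromosome and around Fgfr1, where p53null-2331L rises too, and dip below it about 32 Mb after Fgfr1, at Sap30 and Hmgb2.

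The X chromosome held the last 2 raised segments that met both limits. That from 134585654 to 137082503 had medians of 1.39, 1.87, 1.68 and 1.45, with 7 of 33 genes separated, and PLK2null-1971 reached 1.22 and p53null-7435 1.27. The thymosin genes Tmsb15b2 (4.66) and Tmsb15b1 (3.59) are near-identical copies whose reads may be split between them, and Tceal1 (2.51) and Arxes2 (2.03) followed. That from 166170454 to 167209315 had medians of 0.70, 1.32, 1.12 and 1.14, with 4 of 8 genes separated. These were Egfl6 (7.25), Gpm6b (2.99), Tceanc (1.78) and Trappc2 (1.07). Trappc2 was 445 to 645 in the 4 tumors and 596 to 747 in the claudin-low tumors. Over the segment PLK2null-1971 at 0.75 and p53null-7435 at 0.79 exceeded PLK2null-7747. Xist, the RNA that silences 1 X chromosome in female cells and was chosen after its values were seen, was 9058, 2516, 9264 and 17435, where the others ran from 13750 to 68618 with a median of 36031 and 1 of the 21 lay below the highest of the 4 (difference -2.23).

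Whole chromosomes moved little. Chromosomes 4, 9 and X had medians of at least 0.25 in all 4 tumors, 0.60, 0.29, 0.61 and 0.48 for chromosome 4, 0.38, 0.38, 0.42 and 0.36 for chromosome 9 and 0.34, 0.48, 0.44 and 0.33 for X, and none did under TMM. The limit of 0.25 counted raised chromosomes only. Chromosome 8 was lowered in all 4, with medians of -0.27, -0.37, -0.17 and -0.26. Over all genes the medians of these tumors were 0.20, 0.15, 0.19 and 0.10. The 21 others ran from -0.41 to 0.25 on chromosome 8. Counted in each tumor alone, 1918 to 2878 windows passed 0.5 in the 4 tumors. The count was 96 to 2677 with a median of 355 in the 21 others, which are measured from their own median, and 202 to 2373 in the p53null tumors. Raised windows in such numbers were thus present in some tumors outside the 4. In single tumors the windows were not merged, so the width of raised stretches was not compared.

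Turning to pathways, each gene list was described by its counts and its median, to be read beside 2.47% higher and 0.741% lower over all genes and the median of 0.15. p53 target genes are those whose transcription p53 drives. Of 27 tested, 3 were higher and 0 lower, with a median difference of 0.34, and 2 of the 3 lie in the raised segments, Sesn1 on chromosome 10 and Ckap2 on chromosome 8. Besides them, Trp53inp1, a stress-induced p53 cofactor, was 2078, 1802, 1763 and 2187 against 404 to 1590 (difference 1.33). Cdkn1a, the cell cycle inhibitor p21 and a classic target, was 382, 385, 592 and 441 against 401 to 1480. Regulators of p53 other than Mdm2 gave 0 separated of 16. Mdm4, the partner of Mdm2, was 3965, 7064, 4032 and 3350, within the 2606 to 7065 of the others (difference 0.12).

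Cell cycle genes showed no separated member. The median difference was -0.26 over 19 cyclins, kinases and inhibitors of G1 and 0.17 over 21 genes of mitosis and proliferation, and the latter was -0.00 under TMM. The polo-like kinases, the family of Plk2, had a median of -0.13 over 4 tested genes.

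Receptor tyrosine kinases had 2 separated genes of 20, Fgfr1 and Insr, both inside raised segments, and a median of 0.79. Fgfr2, a receptor for several of the same ligands as Fgfr1, was 5197, 2215, 4624 and 9807 against a median of 51.2, and 3 others exceeded the lowest of the 4 (difference 5.83). Among 15 EGF and FGF ligands, Fgf1 was the separated one, with 1396, 3334, 1638 and 2449 against 111 to 1151 (2.52), and 4 of the 13 p53null tumors exceeded the lowest of the 4. The 4 tumors thus had high levels of Fgf1, Fgfr1 and Fgfr2 and low Met.

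The Wnt list had a median of 1.16 over 23 genes, with 3 higher and 0 lower. All 3 encode secreted inhibitors, Wif1 and Sfrp1 in the raised segments and Sostdc1, which was 411, 1230, 527 and 998 against at most 396 in PLK2null-7763 (difference 6.01). Sostdc1 did not set the 4 apart from the p53null tumors, of which 7 of 13 exceeded the lowest of the 4, with a median of 481 and a maximum of 3541. Of ligands, Wnt6 (5.30), Wnt4 (2.61) and Wnt5a (2.17) were high on average and overlapped with 3 to 7 others. Axin2, a feedback target of the pathway, was 212, 115, 233 and 155, within the 23.4 to 706 of the others (-0.36).

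The TGF-beta and BMP list had a median of -0.99 over 18 genes, with 14 lower on average. Tgfb1, the ligand, was 643, 708, 536 and 619 against 1087 to 4939 (difference -1.77) and was the separated one. Without PLK2null-7763, Tgfb3, Smad7 and Skil were separated too, which made 4 lower. The medians of the other lists were -0.01 for Notch (14 genes), 0.14 for hedgehog (11, and -0.08 under TMM), -0.60 for hypoxia and glycolysis (17), -0.15 for interferon-stimulated genes (14), -0.58 for MHC class II (7), 0.26 for hemidesmosome and laminin genes (10) and -0.28 for squamous genes (13), with 0 separated in each.

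**Figure D5:**
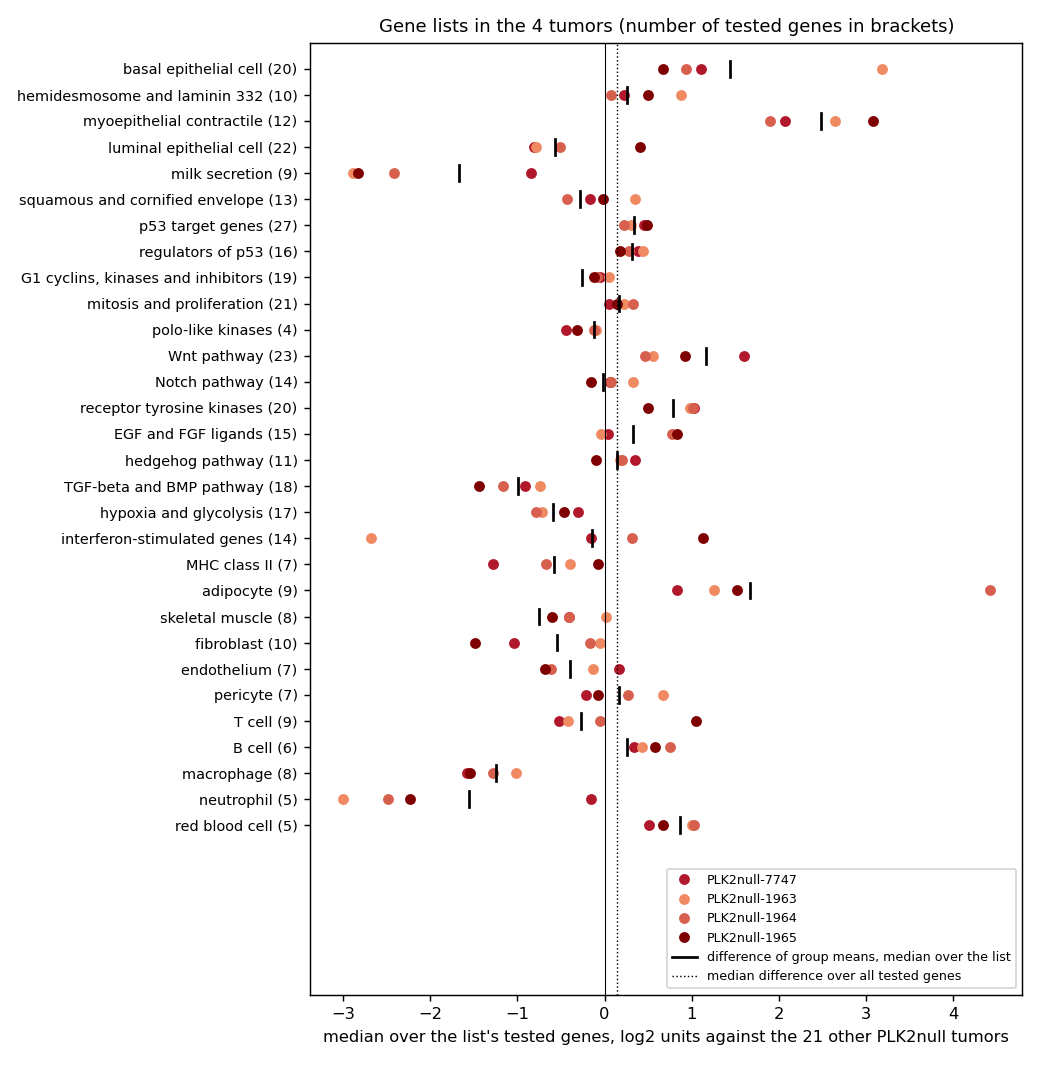
Median over the tested genes of each list of a tumor's log2 deviation from the median of the 21 other PLK2null tumors, with 1 point for each of the 4 tumors, and the median difference of group means as a bar; the dotted line marks the median over all genes, 0.15. Myoepithelial genes lie to the right in all 4 tumors and macrophage genes to the left, while the interferon list spreads from -2.68 in PLK2null-1963 to 1.13 in PLK2null-1965.

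Markers of host and immune cells were read for the whole lists, and in bulk tumors fewer cells of a type and less RNA per cell cannot be told apart. Macrophage markers were lower on average in 8 of 8 genes (median difference -1.24), with a summed level of 8285 to 12078 in the 4 tumors and 5946 to 45997, median 26203, in the others. Csf1r was 979, 1798, 1592 and 1126 against a median of 2468. Neutrophil markers had a median of -1.55 over 5 genes, with PLK2null-7747 near the others. Fibroblast markers (-0.55 over 10) summed to 40421 to 72143 against 34476 to 327292, endothelial markers (-0.40 over 7) to 3856 to 5948 against 3157 to 81959, and pericyte markers (0.17 over 7) to 6993 to 12087 against 3433 to 35973. Adipocyte markers were higher on average in 9 of 9 genes (1.67), with sums of 1373 to 4436 against 307 to 55212 in PLK2null-7763, and the list includes Retn of the chromosome 8 segment. Without PLK2null-7763, 1 of them, Pparg, was separated. T cell (-0.27 over 9), B cell (0.26 over 6), red blood cell (0.86 over 5) and skeletal muscle genes (-0.75 over 8) overlapped widely as well. With all 21 others, 0 markers of these lists were separated, and the part of these cells in the differences above was not tested.

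The 4 tumors were not uniform. PLK2null-1963 lay at least 2 log2 units below the other 3 in 286 genes and above them in 70. The corresponding numbers were 31 and 28 for PLK2null-7747, 6 and 43 for PLK2null-1964 and 12 and 60 for PLK2null-1965. PLK2null-1963 had the highest Krt5, Krt14, Krt17 and Col17a1 and the lowest Krt19, Gata3, Foxa1 and Prlr of the 4. Its interferon-stimulated genes had a median deviation of -2.68, against -0.16 to 1.13 in the other 3. PLK2null-1965 had the highest contractile genes, with Acta2 at 73590, and Pgr, the progesterone receptor, at 3913 against 54.4 to 439 in the other 3. PLK2null-7747, which bears a number of another range than the other 3, had more of Ngp (117 against 3.18 to 8.25) and Retnlg (28.8 against at most 2.06), both known from neutrophils, and of Cntn6, Fndc3c1 and Nap1l5. It had less of Rtl1, Gzma, Retnla, Lenep and Vgll3, each at 1.88 or less.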

How the data were processed

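RNA-seq of bulk tumors was deposited by the authors as 1 table of 47480 gene symbols by 41 tumors. Per the study's methods and processing notes, poly(A) libraries were sequenced in pairs, aligned to mm10 with STAR 2.7.6a and quantified with Salmon 1.4.0; Picard 2.22.4 and SAMtools are also named, and the gene annotation is not given in the sources used here. The deposited values are a linear signal, gene-level estimated counts scaled by the authors to an upper quartile of 1000 per tumor. Of the nonzero values in the 4 tumors, 77.9 to 78.6% were whole multiples of 1 read within 0.1 read. Counts were therefore not recovered, and no count model was used for differences between the groups.

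Columns were matched to tumors by number. Values were taken as log2(value + 1), genes with a mean of at least 10 over the 25 tumors were kept, and 613 of these had no unique position and entered no window. Positions are from a GRCm38 annotation, matched by unique symbol. A gene was named if it was Krt5, Mdm2, Plk2, Trp53, Met or Cldn3, among the 15 separated genes with the largest difference per direction (without Gm, Rik and receptor segment names), among up to 4 non-overlapping or defining members of a list, up to 6 per segment, or 5 per direction for PLK2null-7747, and other genes in the text were chosen after their values were seen. The tumors and gene lists were chosen with earlier results of these data known. No test of the differences between the 4 tumors and the others was made, since the tumors were selected on values of the same contrast. Dixon's limit served only to flag values within the 4. Spread between tumors is therefore all that the ranges show, and whether the 4 are independent tumors is not stated. Alternatives were pseudocount, filters, TMM and quantile normalization, window settings and leaving out tumors. Python 3.11.15, numpy 2.4.6, pandas 2.3.3, scipy 1.17.1 and matplotlib 3.10.9 were used. The steps were also run on simulated data with genes drawn independently and their spread capped. That is a simpler setting than these tumors and bears on the code only. Sequences are from RefSeq (GRCm38.p6). Some genes that the rules would name are not reported here.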

Additional observations from a re-analysis of the deposited data

Results flagged for a closer look

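In 9 of 102 named genes (8.82%), 1 of the 4 tumors stood far from the other 3. The gap to the nearest, as a share of the range, exceeded Dixon's 95% limit for 4 samples. The share was taken on values before the log2 step, so a flag can depend on the scale. Most named genes were picked on values in these same tumors, so the 8.82% cannot be set against a chance rate. Of the 9 flagged genes, 3 concerned PLK2null-1963. They were Krt5 at 36680 (8000 to 9781 in the other 3), Trp53 at 2665 (2050 to 2105) and Egfl6 at 7023 (237 to 839). The other 6 concerned PLK2null-7747, with Csn1s2a at 1.88, Ngp at 117, Cntn6 at 31.3, Fndc3c1 at 253, Nap1l5 at 196 and Retnlg at 28.8. The last 5 of these were named because PLK2null-7747 lay far above the other 3, so that they stand apart follows from how they were picked. The Csn1s2a value is about 3 reads.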

How the results depend on the processing

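The counts of separated genes stayed within 1.5 times of 421 higher and 126 lower under a pseudocount of 10, filters at no minimum and at a mean of 100, TMM and the addition of the claudin-low tumors. Exceptions were quantile normalization (193 lower), a required difference of at least 2 (200 higher, 44 lower) and, for lower genes, leaving out PLK2null-7748 or PLK2null-7763. Leaving out each of the 4 in turn gave 442 to 592 higher and 155 to 187 lower, and leaving out PLK2null-7763 gave 518 and 194. Leaving out each of the 20 remaining others, an alternative added after seeing the data, gave 416 to 535 higher and 123 to 330 lower, the 330 without PLK2null-7748. Raised windows numbered 252 at a threshold of 1, 550 at a mean of at least 100 and 488 under TMM. Lowered windows numbered 268 with 0.5 Mb to each side, 55 at a threshold of 1 and 745 under TMM. Leaving out 1 of the 4 gave 1017 to 1357 raised and 199 to 318 lowered, and without PLK2null-7763 they were 996 and 172. Mdm2 and Fgfr1 stayed in raised segments under all 11 window alternatives. Chromosomes with a median of at least 0.25 in all 4 tumors fell from 3 to 0 under TMM. Among 1101 values of the 102 named genes under these alternatives, 1023 moved by less than 1 SD and 78 by more. Of the values of separated genes, 0 changed sign. For named genes that overlapped between the groups, changes of sign were not counted. The cause of these changes was not tested beyond what each alternative's construction gives. No paired analysis was possible because the labels share no replicate numbers between the groups compared.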
